A study of Mus musculus with 5 samples.

Results

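The cells described here were macrophages of mouse synovial sarcoma (SyS) that carried no read molecule of the 4 tissue-resident macrophage genes Mrc1, Folr2, Lyve1 and Cd163. Droplet single-cell RNA-seq counts RNA molecules by unique molecular identifiers (UMIs), and the cells were chosen on those counts alone. A cell was taken when it had at least 750 detected genes and at most 25% mitochondrial UMIs, when at least 4 of the 6 macrophage genes C1qa, C1qb, C1qc, Csf1r, Ms4a7 and Adgre1 were detected, and when it held under 5 UMIs of Adgrb3 (a gene of the tumour cells) and 0 UMIs of the endothelial gene Cdh5. It also held 0 UMIs over the 4 resident genes and at most 1 UMI over the 5 cycling genes Mki67, Top2a, Birc5, Ube2c and Cdk1. This gave 747 Mrc1-negative macrophages of 51670 called cells, 42516 of which passed the filters on genes and mitochondrial share. The same rule with at least 1 UMI of a resident gene gave 2186 Mrc1-positive macrophages, the class nearest to them, and 585 macrophages were set aside as cycling.

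The mice carried the hSS2 allele, which places SS18::SSX2, the fusion oncogene of SyS, in the Rosa26 locus behind a floxed stop cassette. All 5 tumours were started by TATCre protein injected into the hindlimb at 8 days of life, and they were harvested at morbidity, so every sample shares the fusion, the Cre protein and the late stage. The study describes its mice together as a mixed strain, with both sexes used and an age range in months. The age of each animal at harvest was not given in the sources used here. No fusion-free tissue was sampled, and TATCre recombines whatever cells it enters at the injection site. The labels give the histology of the tissue next to each dissociated piece: 2 tumours were biphasic (BP, with spindle and glandular epithelial areas), 1 held spindle cells only (MP, monophasic), 1 held areas of both kinds (MP+BP), and 1 was part poorly differentiated, part monophasic (PD+MP). The leading number of both BP labels is the same, and whether they came from 1 animal is not stated. MP, MP+BP and PD+MP have 1 tumour each, so differences between single labels carry no test, and the tumour cannot be told apart from its label.

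Macrophages engulf debris, present peptides to T cells and secrete cytokines, and those of a tumour come both from cells settled in the tissue and from blood monocytes that enter it. Mrc1 (the mannose receptor CD206), Folr2, Lyve1 and Cd163 are scavenger and uptake receptors typical of settled, perivascular macrophages. Major histocompatibility complex (MHC) class II molecules, built of the alpha and beta chains of H2-A and H2-E and guided by the invariant chain Cd74, show peptides of engulfed proteins to CD4 T cells. Interferon-stimulated genes are switched on together when type I or type II interferon reaches a cell, and lipid-handling genes govern the uptake, storage and export of cholesterol and fatty acids.

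Both of the first gene groups are known for short shared elements close to the start of transcription. Their promoters are shown because genes of both groups were called higher in Mrc1-negative macrophages in the comparison that follows. The interferon calls depended more on single tumours than the class II calls did. The 120 bases before the start are given 5′ to 3′ on the strand of the gene, from RefSeq on GRCm38.p6. In the class II genes the capitals mark the Y box core TGATTGG, and in the interferon genes they mark a form of the interferon-stimulated response element, GAAA, 2 bases of any kind and GAAA, or its reverse complement.
H2-Aa, chr17:34287824-34287943, minus strand: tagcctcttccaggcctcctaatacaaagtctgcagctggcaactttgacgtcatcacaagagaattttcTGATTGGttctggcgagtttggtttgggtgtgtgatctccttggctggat
H2-Eb1, chr17:34305747-34305866, plus strand: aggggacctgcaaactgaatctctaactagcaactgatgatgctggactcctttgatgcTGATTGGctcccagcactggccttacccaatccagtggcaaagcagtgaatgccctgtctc
Isg15, chr4:156200819-156200938, minus strand: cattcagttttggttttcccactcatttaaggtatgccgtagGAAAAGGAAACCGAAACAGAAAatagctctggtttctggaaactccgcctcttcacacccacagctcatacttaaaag
Rsad2, chr12:26456453-26456572, minus strand: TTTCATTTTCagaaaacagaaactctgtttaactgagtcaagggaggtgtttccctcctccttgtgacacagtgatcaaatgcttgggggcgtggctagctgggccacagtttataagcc
The Isg15 run holds 3 overlapping matches, and the Rsad2 run holds 1 match on the opposite strand. Searched on both strands over the 250 bases before the start, the Y box core lay in 6 of the 8 class II list genes with a RefSeq window (H2-Aa, H2-Eb1, H2-DMb1, H2-DMb2, H2-Oa and H2-Ob, not H2-DMa or Ctss). It lay in 8.38% of all 27025 genes and in 7.23% of all 32851 windows. The interferon element lay in 6 of 11 interferon list genes with a window (Isg15, Ifit1, Ifit3, Rsad2, Gbp2 and Cxcl10), in 3.46% of all genes and in 2.98% of all windows. H2-Ab1, Cd74 and Ciita had no window, and a match describes letters only, not a bound site.

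The 5 libraries held 89996321 to 118649103 UMIs each, and the Mrc1-negative macrophages contributed 352859 to 1037535 of them per tumour. Median depth was 3615 to 5058 UMIs per Mrc1-negative cell, below the 4525 to 6786 of Mrc1-positive macrophages and the 9974.5 to 13043 of tumour cells, taken here as kept cells with at least 5 Adgrb3 UMIs and at most 1 macrophage gene. Libraries shared 15 to 33 cell barcodes per pair, and among Mrc1-negative macrophages 1 barcode was shared, between BP replicate 1 and MP. Levels below are given as CPM, the UMIs of a gene per 1000000 UMIs summed over the cells of 1 class in 1 tumour. Values follow the order BP replicate 1, BP replicate 2, MP, MP+BP and PD+MP throughout, and Poisson and binomial intervals cover counting error only.

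The macrophage label rests largely on genes that the rule itself used. C1qa and C1qb, chains of the first complement component, were used to choose the cells, and so were Csf1r (the receptor for colony-stimulating factor 1) and Ms4a7, so their levels are a description and no check. C1qa stood at 3449.5, 3825, 3231, 4561 and 3386 CPM, against 1.29 to 3.37 in tumour cells, and Csf1r at 296, 412, 317, 370.0 and 277 CPM against 1.53 to 5.78. The chemokine gene Ccl4, the 1 marker the rule did not use, read 530.1, 2087, 1919, 707 and 1008 CPM against 0.399 to 4.26 in tumour cells, and at 2000 UMIs it was detected in 40.8% of Mrc1-negative cells and 0.292% of tumour cells (47.1% and 1.4% before thinning). It was lowest in BP replicate 1 and highest in BP replicate 2, with 1 cell giving 26.9% of its UMIs in the former and 12.7% in the latter. Ccl4 read 667, 1631, 2326, 639 and 964 CPM in Mrc1-positive macrophages, a log2 difference of 0.088 (SE 0.10, adjusted p = 0.712) that did not pass edgeR's quasi-likelihood test.

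Markers of other cells were low but not absent. The T-cell genes Cd3e, Cd3d, Cd3g, Trac and Cd8a and the neutrophil genes Retnlg and Ly6g had 0 UMIs in all 747 cells. Over their whole lists, the 10 T and NK cell markers summed to 18.3 to 45.3 CPM and the 7 neutrophil markers to 22.7 to 69.8 CPM. In Mrc1-positive macrophages these sums were 33.2 to 91.9 and 41.2 to 82.6 CPM. The 9 SyS markers summed to 193, 229, 116, 116 and 74.7 CPM, against 113, 132, 106, 132 and 75.1 in Mrc1-positive macrophages. The 8 dendritic-cell markers summed to 72.3, 22.6, 82.2, 47.8 and 16.2 CPM, against 16.9, 25.5, 25.4, 34.6 and 30.1 in Mrc1-positive macrophages, with Flt3 detected in 5 cells and Ccr7 in 9. The 5 fibroblast markers summed to 106, 290.3, 187, 143 and 478 CPM, against 48.4, 97.6, 26.8, 72 and 45.9 in Mrc1-positive macrophages, and the 4 pericyte markers to 27, 52, 388, 299.5 and 14.9 CPM against 25.9, 79.8, 74.2, 50.4 and 8.82. Where these lists could be tested against Mrc1-positive macrophages, the fibroblast genes Col1a1 and Col3a1 and the endothelial genes Pecam1 and Flt1 rose (edgeR's quasi-likelihood test, described below). Mast-cell markers reached 125.8 CPM in MP+BP and 22.7 CPM or less in the other tumours. In all, 49 of the 747 cells (12, 19, 3, 7 and 8 by tumour) held at least 5 UMIs of the SyS, endothelial, fibroblast and pericyte markers together, and Scrublet placed 4.12% to 6.0% of Mrc1-negative against 1.71% to 3.17% of Mrc1-positive macrophages among likely doublets. The EGFP feature of the matrices gave 13 UMIs in 12 cells, all in the BP tumours. The part of this RNA in the results below was not tested directly, and the comparison between classes was also run without the cells that held at least 5 such UMIs, in both classes.

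Mrc1-negative macrophages made up 22.4% to 27.4% of the macrophages outside the cycle. Of non-cycling macrophages they were 26.2% (exact binomial 95% interval 22.9 to 29.7) and 27.4% (24.5 to 30.5) in the BP tumours. The MP tumour had 24.8% (19.9 to 30.3), the MP+BP tumour 22.4% (18.6 to 26.5) and the PD+MP tumour 24.5% (21.2 to 28.0). Over all depths the 5 intervals overlap one another, and the mean of the BP tumours was 26.8 ± 0.879% (SD, n = 2). As a share of all kept cells they differed more, at 2.65% and 2.35% in the BP tumours, with MP at 0.907%, MP+BP at 1.07% and PD+MP at 1.86%. The lower bounds of both BP tumours, 2.28 and 2.07%, lay above the upper bounds of MP (1.15%) and MP+BP (1.30%).

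**Figure D1:**
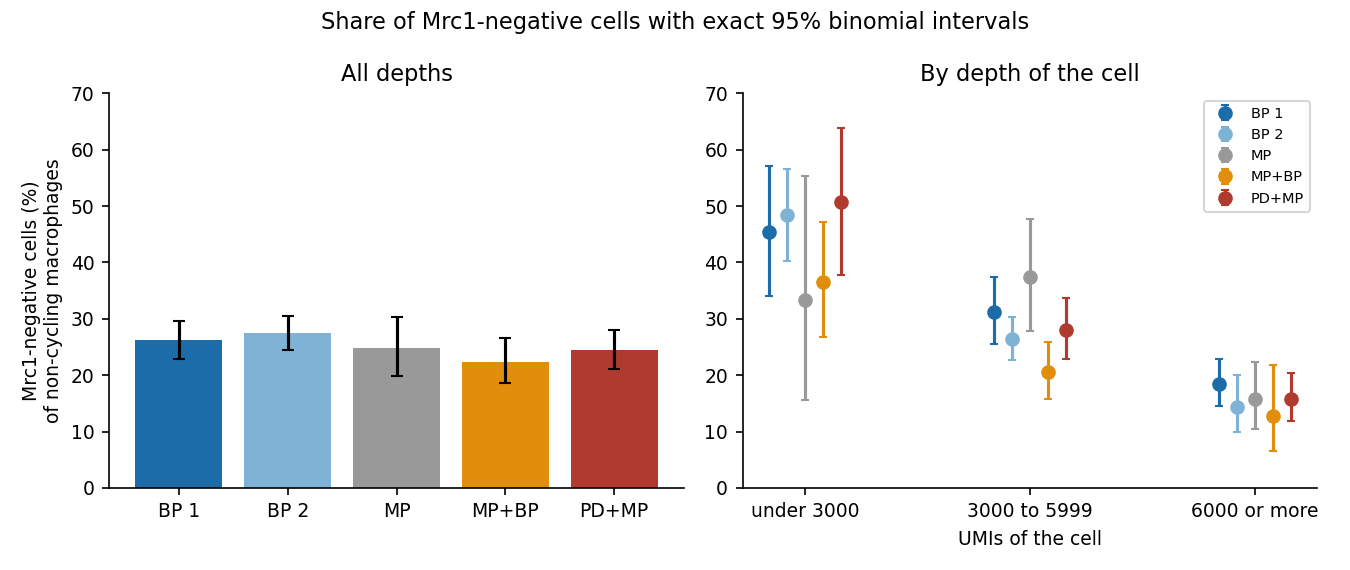
Percent of macrophages outside the cycle that held 0 UMIs of the 4 resident genes, by tumour, with exact binomial 95% intervals (bars), beside the same share within bands of UMIs per cell. The shares over all depths lie between 22.4% and 27.4%, and within each tumour the share is lowest in the deepest band.

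A share set by 0 UMIs moves with depth, and it did so here in each tumour between the shallowest and deepest cells. Among macrophages under 3000 UMIs the share was 45.5, 48.4, 33.3, 36.6 and 50.8%, and among those with 6000 UMIs or more it was 18.4, 14.4, 15.7, 12.8 and 15.8%. With every macrophage thinned to 2000 UMIs the share was 51.5, 46.5, 47.6, 40.1 and 44.8%. The class can hold macrophages in which a resident transcript was missed at their depth, and these cannot be told apart from those with none. Just outside the rule stood 534 macrophages with exactly 1 resident UMI, whose summed levels were 3052 CPM for H2-Aa, 764 CPM for Il1b and 213 CPM for Ccl8. The 747 Mrc1-negative cells had 3908, 817 and 83.9 CPM for the same genes, and the 1253 macrophages with 3 or more resident UMIs had 1672, 370.3 and 1317 CPM. Another 74 cells missed the class by having 3 macrophage genes, 33 by having 2 cycling UMIs and 6 by having 5 Adgrb3 UMIs.

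The first question was how Mrc1-negative macrophages differ from the Mrc1-positive macrophages of the same tumour. Across the 5 pairs, 7 of 8 MHC class II genes, 5 of 8 interferon genes, 4 of 8 monocyte genes and Il1b were higher in the Mrc1-negative cells, and 6 of 17 genes of lipid uptake, storage and efflux and the 10 tested settled-macrophage genes were lower. The test was edgeR's quasi-likelihood test on summed counts with the tumour as a block, adjusted by Benjamini-Hochberg over all genes fitted. Rule genes that passed the count filter took part in the fit and its adjustment. The 17 genes of the rule were then left out of the calls, which leaves 8446 genes. The test called 452 genes higher (5.35%) and 348 lower (4.12%), with a median log2 difference of 0.016 over these genes. With total counts in place of TMM scaling the split was 331 higher and 501 lower. Without the cells that held at least 5 UMIs of other cells' markers, 464 genes were higher (5.8%) and 317 lower (3.96%) of 8006 tested.

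**Figure D2:**
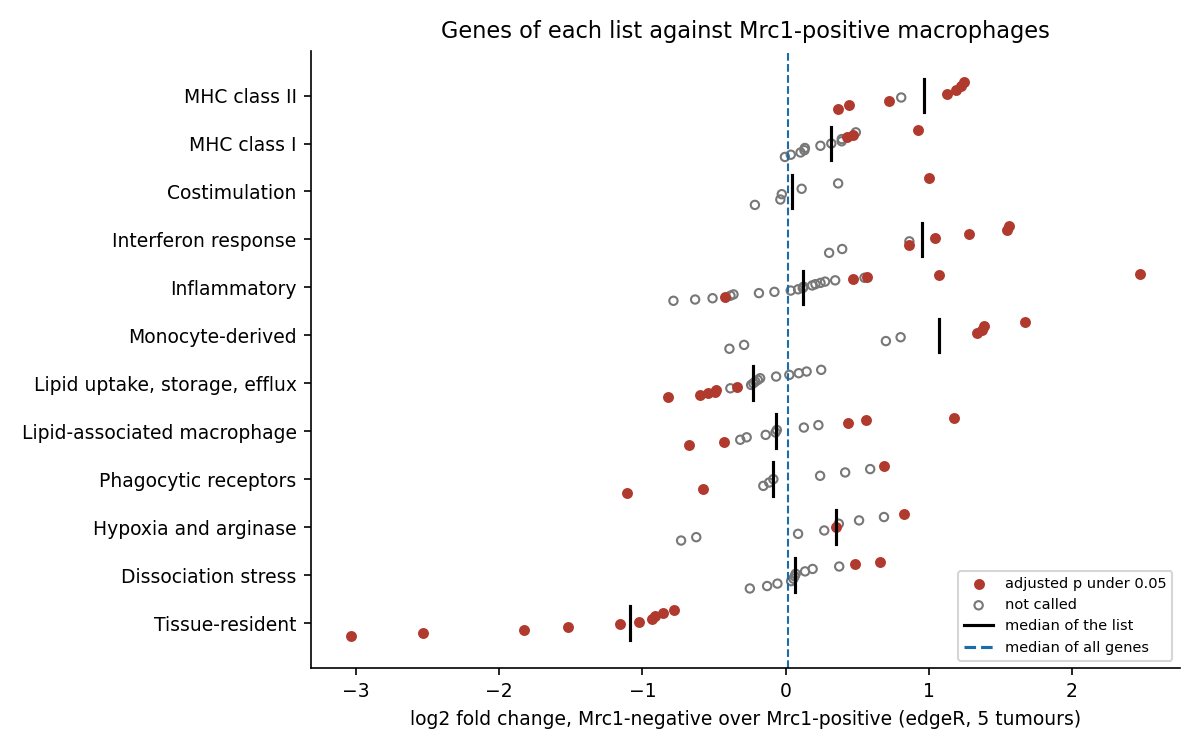
Log2 difference between Mrc1-negative and Mrc1-positive macrophages for each tested gene of the lists (points; filled where adjusted p is under 0.05), with the median of each list and of all genes tested. The MHC class II, interferon and monocyte lists have medians of 0.97, 0.95 and 1.07, and the resident list, which is not independent of the rule, has a median of -1.09.

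MHC class II genes were higher in the Mrc1-negative macrophages. Of the 8 genes of the class II list that could be tested, 7 rose and none fell, with a median log2 difference of 0.97. H2-Aa, the alpha chain of H2-A (chr17:34282744-34287823, minus strand, GRCm38, whose promoter is printed above), read 2797, 4716, 4911, 8613 and 1547 CPM in Mrc1-negative and 1547, 2998, 1112, 5204 and 696 CPM in Mrc1-positive macrophages. It was higher in all 5 tumours, by 1.19 (SE 0.17, adjusted p = 0.000699), and the widest gap was in MP. Its partner H2-Ab1 was higher by 1.23 (SE 0.18, adjusted p = 0.000963), the H2-E beta chain H2-Eb1 by 1.24 (SE 0.19, adjusted p = 0.000963) and the invariant chain Cd74 by 1.12 (SE 0.17, adjusted p = 0.00108). The 2 classes still overlapped between tumours, since Mrc1-positive macrophages of MP+BP had more H2-Aa than the Mrc1-negative ones of the other 4 tumours. H2-DMa and H2-DMb1, whose product loads peptide onto class II, were higher by 0.36 and 0.72, and the protease Ctss, which trims the invariant chain, by 0.45 (adjusted p = 0.0417, 0.00167 and 0.0103). H2-DMa did not pass when any 1 of the 5 tumours was left out (adjusted p = 0.0576 to 0.183), nor with total counts, DESeq2 or cells of at least 5000 UMIs. Ciita, the master regulator of class II transcription, read 5.78, 15.7, 14.2, 25.2 and 12.5 CPM against 3.94, 10.7, 5.5, 20.5 and 5.17 and did not pass (adjusted p = 0.0886), but it passed once cells with other cells' RNA were left out (adjusted p = 0.0458). H2-DMb2, H2-Oa and H2-Ob were too low to test. Cells of at least 2000 UMIs were also thinned to that depth. H2-Aa was then detected in 70.3% of 696 Mrc1-negative and 54.3% of 2127 Mrc1-positive macrophages, against 0.704% of tumour cells (73.6, 62.4 and 3.00% in all cells before thinning).

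Genes of the MHC class I route moved less. Of 13 tested, 3 rose and none fell, with a median of 0.32: the peptide pump subunit Tap1 (log2 difference 0.93, adjusted p = 0.0471) and the proteasome activators Psme1 (0.43, 0.0179) and Psme2 (0.47, 0.0135). The light chain B2m read 1904, 1694, 2015, 2585 and 3828 CPM against 1804, 1718, 1788, 1724 and 3086, a difference of 0.32 (SE 0.10, adjusted p = 0.0628). H2-K1 and H2-D1, the class I heavy chains, differed by 0.24 and 0.13 without passing (adjusted p = 0.166 and 0.42). Without cells holding other cells' RNA 6 of 13 rose, with H2-K1, B2m and Psmb8 added to the same 3. B2m also passed with cells thinned and against macrophages with at least 3 resident UMIs. With total counts 2 of 13 rose, and in cells of at least 5000 UMIs 1. Of 6 costimulation genes, 1 rose: Cd274 (PD-L1, a ligand that restrains T cells) read 33.7, 18.6, 28.3, 65.4 and 79.7 CPM against 25.6, 7.98, 16.5, 31 and 35.9, a difference of 1.00 (SE 0.18, adjusted p = 0.00281). Cd274 did not pass with cells thinned to 2000 UMIs. Cd86 and Cd83, which costimulate T cells or mark activated presenting cells, differed by -0.21 and -0.027 (adjusted p = 0.311 and 0.931).

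The inflammatory list was mixed. Of 22 genes tested, 4 rose (Ccl5, Il1b, Cd14 and Nfkbia), 1 fell (Ccl3) and 17 did not pass, with a median of 0.12. Il1b, the precursor of the cytokine interleukin 1 beta (chr2:129364570-129371139, minus strand), read 627, 1118, 1083, 969 and 486 CPM in Mrc1-negative and 402, 974, 372, 409 and 190.3 CPM in Mrc1-positive macrophages. It was higher in all 5 tumours, by 1.07 (SE 0.17, adjusted p = 0.00113), with the smallest gap in BP replicate 2, and 36.6% of its UMIs in MP came from 1 cell. After thinning, Il1b was detected in 48.4% of Mrc1-negative and 34.8% of Mrc1-positive macrophages, against 0.219% of tumour cells (56.9, 48.8 and 1.02% before thinning). Cd14, the co-receptor for bacterial lipopolysaccharide, was higher by 0.57 (SE 0.13, adjusted p = 0.0112), and the NF-kappa-B inhibitor Nfkbia by 0.47 (SE 0.13, adjusted p = 0.0273). Neither of these passed when only cells with at least 5000 UMIs were used, nor without MP or without MP+BP.

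Ccl5, a chemokine that draws T cells and monocytes (chr11:83525778-83530518, minus strand), had the widest difference of the called inflammatory genes but sat in few cells. It read 128, 59.8, 2.83, 196 and 215 CPM against 2.81, 11.7, 4.81, 102 and 39.2, a difference of 2.48 (SE 0.37, adjusted p = 0.00093), and was higher in 4 of 5 tumours. Its UMIs came from 11, 5, 1, 9 and 19 cells, and in BP replicate 2 a single cell gave 72.1% of them. Ccl3, a chemokine made beside Ccl4, fell in all 5 tumours, from 213, 347, 605, 176 and 247 CPM in Mrc1-positive to 107, 284, 431, 151 and 166 CPM in Mrc1-negative macrophages, a difference of -0.43 (SE 0.12, adjusted p = 0.0311). Ccl3 did not pass with DESeq2, with cells thinned, without BP replicate 1 or without PD+MP, and Ccl5 did not pass with DESeq2. Tnf, the gene of tumour necrosis factor, read 119.5, 115, 162, 204 and 73.5 CPM against 129.7, 87.5, 159, 132 and 82.1 (log2 difference 0.24, SE 0.13, adjusted p = 0.291), and the monocyte attractant Ccl2 read 105, 129, 159, 385 and 1158 CPM against 390.5, 258, 552, 437 and 459 (-0.51, SE 0.34, adjusted p = 0.429). Ccl2 was lower in Mrc1-negative cells of 4 tumours and higher in PD+MP.

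Interferon-stimulated genes were also higher, with fewer molecules behind them. Of 8 genes tested, 5 rose and none fell, with a median of 0.95. Isg15, a ubiquitin-like modifier (chr4:156199424-156200818, minus strand), read 41.4, 31.4, 56.7, 154 and 720.0 CPM in Mrc1-negative and 58.5, 22.4, 27.5, 37.5 and 271 CPM in Mrc1-positive macrophages, a difference of 1.04 (SE 0.26, adjusted p = 0.0173), and was higher in 4 of 5 tumours. Irf7, which amplifies interferon transcription, read 27, 8.83, 19.8, 85.6 and 311 CPM against 18.6, 3.07, 4.12, 7.61 and 129.8 and was higher in 5 of 5, by 1.56 (SE 0.28, adjusted p = 0.00311). The antiviral genes Rsad2 and Ifit3 were higher by 1.55 and 1.28 (adjusted p = 0.0173 and 0.03), each in 3 of 5 tumours. Cxcl10, a chemokine for activated T cells, read 208, 169.7, 56.7, 211 and 163 CPM against 89.7, 111, 135, 76.1 and 79.3, a difference of 0.86 (SE 0.22, adjusted p = 0.0185). It did not pass without cells holding other cells' RNA (0.65, adjusted p = 0.151). Tumour cells held 396, 253, 186, 36.5 and 53.3 CPM, least in MP+BP, where the gap between the classes was widest, and their part in the result was not tested. The count of 5 fell to 1 without PD+MP, 2 without MP and 3 without MP+BP, and DESeq2 called 1.

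**Figure D3:**
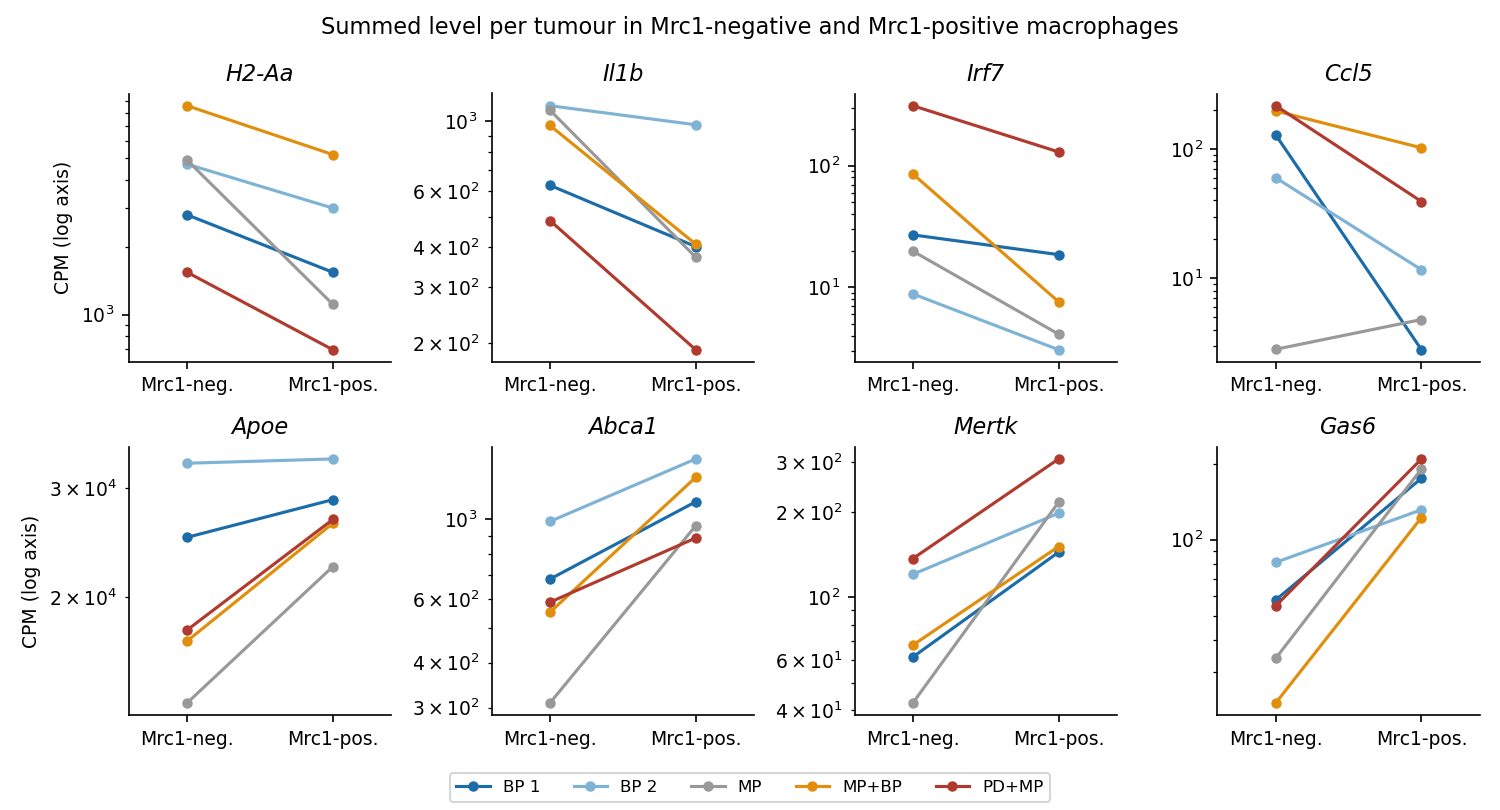
Summed level (CPM, log axis) of 8 genes in Mrc1-negative and Mrc1-positive macrophages, with 1 line per tumour. H2-Aa, Il1b and Irf7 slope down to the Mrc1-positive class in all 5 tumours and Ccl5 in 4 of 5, and Apoe, Abca1, Mertk and Gas6 slope up in all 5.

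Several genes of lipid handling were lower. Of 17 genes for lipid uptake, storage and efflux, 6 fell and none rose, with a median of -0.23. The count was 2 without BP replicate 1 and 3 without MP, without MP+BP or in cells of at least 5000 UMIs, and Npc2 rose without cells holding other cells' RNA or with cells thinned. Abca1, the pump that loads cholesterol onto lipoprotein, read 681, 985, 309, 551 and 588 CPM against 1117, 1468, 958, 1305 and 886 and fell in all 5 tumours, with a difference of -0.82 (SE 0.12, adjusted p = 0.000874). Apoe, an apolipoprotein that carries cholesterol (chr7:19696109-19699188, minus strand), was among the most abundant transcripts of both classes at 24963, 32874, 13489.8, 16979.5 and 17689 CPM against 28714, 33402, 22388, 26298 and 26674. Its difference was -0.34 (SE 0.092, adjusted p = 0.0294), lower in 5 of 5 tumours, but it did not pass without BP replicate 1, MP, MP+BP or PD+MP, nor without cells holding other cells' RNA (adjusted p = 0.132). The lysosomal cholesterol exporter Npc1 differed by -0.48, the phospholipid transfer protein Pltp by -0.59, the fatty-acid binder Fabp5 by -0.54 and the scavenger receptor Msr1 by -0.49 (adjusted p = 0.00861, 0.00861, 0.034 and 0.0315). Fabp5 did not pass without BP replicate 1, MP, MP+BP or PD+MP, and Msr1 did not pass without BP replicate 1, BP replicate 2, MP or MP+BP, nor without cells holding other cells' RNA. Cd36, a receptor for oxidised lipid, differed by -0.18 (SE 0.17, adjusted p = 0.634), and the lipid-droplet coat Plin2 by -0.21 (SE 0.11, adjusted p = 0.291).

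The lipid-associated macrophage list had members in both directions, 3 higher and 2 lower of 12, with a median of -0.066. With total counts in place of TMM scaling 2 were higher and 4 lower. Lgals3 (galectin 3) was higher by 0.56 (SE 0.11, adjusted p = 0.00386) and the integrin Itgax (CD11c) by 1.18 (SE 0.19, adjusted p = 0.00145), both in 5 of 5 tumours, and the phosphatase Acp5 by 0.43 (adjusted p = 0.0474). Acp5 did not pass when any 1 tumour was left out. The lysosomal proteases Ctsd and Ctsb fell by 0.68 and 0.43 (adjusted p = 0.0034 and 0.00782). Trem2, a lipid receptor of this state, read 555, 482, 351, 209 and 634 CPM against 677, 500.3, 542, 307 and 827, a difference of -0.27 (SE 0.092, adjusted p = 0.0785). Spp1 (osteopontin, chr5:104435118-104441050, plus strand) read 1819.7, 407, 1306, 151 and 3659.7 CPM against 2335, 303, 1365, 463 and 3536 and did not pass the test (-0.14, SE 0.17, adjusted p = 0.726).

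Settled-macrophage genes outside the rule followed the genes of the rule. All 10 genes of the resident list that could be tested fell, with a median of -1.09, and since the rule chose cells without resident transcripts this is not independent evidence of direction. Ccl8, a chemokine of resident macrophages (chr11:82115185-82116799, plus strand), read 42.4, 155, 22.7, 164 and 34.9 CPM against 396, 414, 113, 1158 and 2280.0, a difference of -3.04 (SE 0.42, adjusted p = 0.000552). Gas6, a bridge between dying cells and their receptors, read 57.8, 81.4, 34, 22.7 and 54.8 CPM against 175, 131, 190.3, 122 and 209 (-1.52, SE 0.18, adjusted p = 0.000161). Its receptor Mertk, which no resident list held, read 61.7, 121, 42.5, 68 and 137 CPM against 144, 198, 216, 151 and 307 and fell in 5 of 5 tumours, a difference of -1.11 (SE 0.14, adjusted p = 0.000286). Of 9 receptors of engulfment, Fcgr3 also fell (-0.58, adjusted p = 0.00174) and Fcgr4, another receptor for antibody-coated targets, rose (0.69, 0.00672).

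Some genes of recruited monocytes were higher. Of 8 tested, 4 rose and none fell, with a median of 1.07: the chemokine receptor Ccr2 (1.34, SE 0.35, adjusted p = 0.0244), Plac8 (1.67, SE 0.32, adjusted p = 0.00383) and the calcium binders S100a4 (1.38, SE 0.31, adjusted p = 0.00959) and S100a6 (1.37, SE 0.33, adjusted p = 0.0155). Plac8 read 25.1, 3.92, 73.7, 37.8 and 1109 CPM against 19.1, 8.59, 6.18, 10.5 and 281, higher in 4 of 5 tumours. The count fell to 1 without PD+MP and to 1 with only cells of at least 5000 UMIs, and DESeq2 called 0. Ly6c2, the classical monocyte marker, was too low outside PD+MP to test. Of the 9 genes of hypoxia and arginine use, Vegfa and Ldha rose (0.83 and 0.35, adjusted p = 0.00356 and 0.0331), and of 12 genes of dissociation stress Dusp1 and Socs3 rose (0.66 and 0.49, 0.0439 and 0.0325), with list medians of 0.35 and 0.067. Ldha, Dusp1 and Socs3 did not pass with total counts, nor Dusp1 and Socs3 in cells of at least 5000 UMIs. With cells thinned, Dusp1 passed and Ldha and Socs3 did not.

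Ranked by size, the called genes included stromal and myeloid genes. The 10 with the largest rise in all 5 tumours were Col1a2, Nid1, Cd207, Mgp, Ebf2, Napsa, Prrx1, Kif26b, Cald1 and Col3a1, with log2 differences of 2.12 to 2.99. Col1a2 and Col3a1 encode fibrillar collagens, and Col3a1 UMIs lay in 38 of the 747 cells, with 1 cell giving 32.9% to 69.0% of them per tumour. Without the 49 cells that held other cells' markers, 7 of the 10 were too low to test and Cald1, a gene of contractile cells, went from 2.15 to 1.02. The markers used to leave out those cells include Col3a1. Cd207 and Napsa kept their values: Cd207 (langerin, chr6:83671215-83677857, minus strand) went from 2.74 (SE 0.24, adjusted p = 1.79e-05) to 2.70, and the aspartic protease Napsa from 2.36 to 2.49. Cd207 read 43.4, 30.4, 90.7, 108 and 2.49 CPM against 3.94, 3.07, 26.1, 19.9 and 0.304. The 10 with the largest fall were Ccl24, Ccl8, Slc39a12, Cbr2, C4b, Pdgfc, F13a1, Atp6v0d2, Usp35 and Lyzl4. The eosinophil attractant Ccl24 read 0.964, 0, 5.67, 2.52 and 8.72 CPM against 66.7, 5.83, 8.93, 107 and 21.6, and Slc39a12, a zinc transporter, 14.5, 19.6, 11.3, 12.6 and 3.74 CPM against 104, 71.2, 75.6, 194 and 31.3 (-2.65, SE 0.21, adjusted p = 6.39e-06).

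The next question was how the same genes varied among the tumours within the Mrc1-negative macrophages. PD+MP had the highest interferon, monocyte and lipid-associated sums and the lowest class II sum, and MP+BP had the highest class II and the lowest lipid-associated sum. Each tumour was set against the mean of the other 4, counting genes at least 2-fold away among 7105 genes with at least 50 UMIs. Of all genes, 5.11% lay above and 6.88% below in PD+MP, and 1.44% above and 8.82% below in MP+BP. MP had 0.971% above and 12.4% below, BP replicate 1 2.38% and 2.27%, and BP replicate 2 3.52% and 3.88%. With TMM scaling, BP replicate 1 had 1.58% above and 3.17% below, BP replicate 2 2.53% and 4.77%, and MP+BP 2.18% and 6.83%. These counts rest on single tumours and carry no test.

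**Figure D4:**
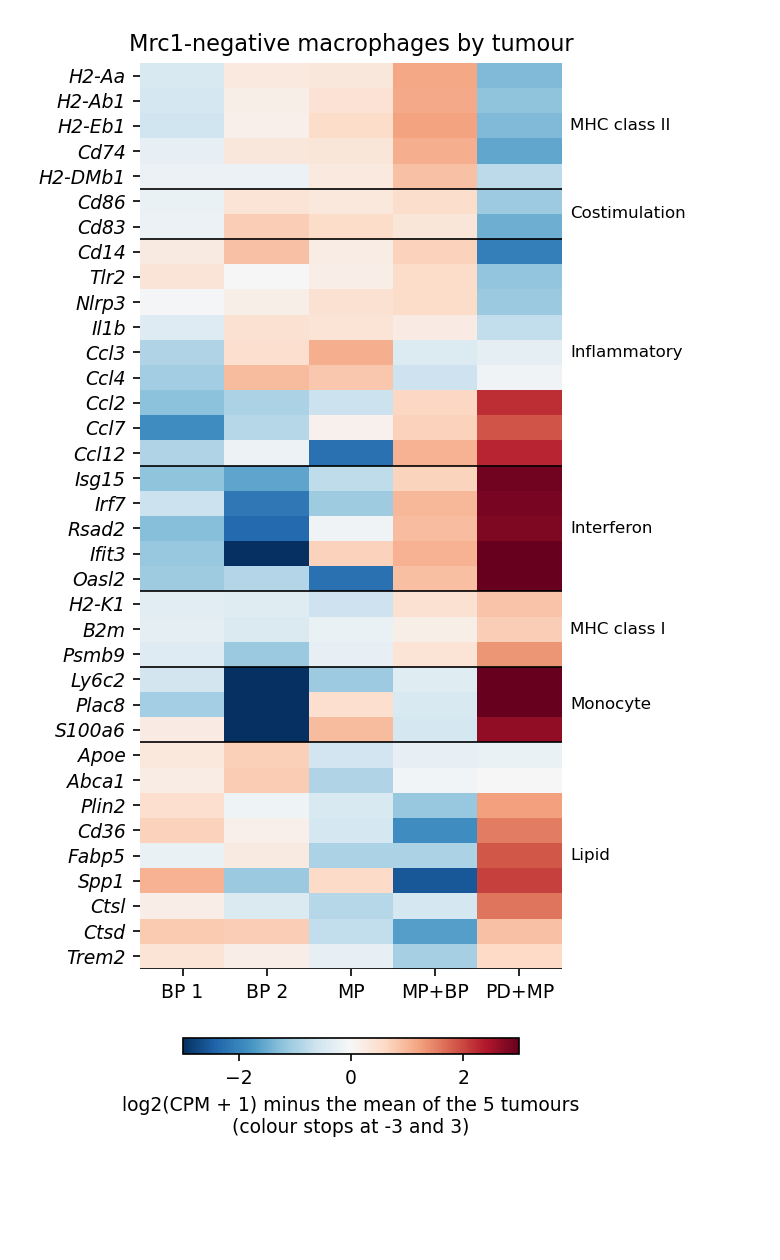
Levels of 36 list genes in Mrc1-negative macrophages by tumour, as log2(CPM + 1) minus the mean of the 5 tumours (colour stops at -3 and 3). Class II genes are highest in MP+BP and lowest in PD+MP, and interferon, monocyte and several lipid genes are highest in PD+MP.

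Class II genes set MP+BP and PD+MP apart from the other tumours. The class II list summed to 13762, 20744, 22850.5, 37128 and 9049.5 CPM. MP+BP lay above every other tumour and PD+MP below, and 5 of 7 class II genes (H2-Aa, H2-Ab1, H2-Eb1, H2-DMb1 and Cd74) were at least 2-fold up in MP+BP and the same 5 at least 2-fold down in PD+MP. Cd74 read 4597, 6947, 7025, 11681 and 1866 CPM, with Poisson 95% intervals of 11348 to 12022 for MP+BP and 1773 to 1963 for PD+MP that touch no other tumour. The BP tumours differed between themselves, with H2-Aa at 3756 ± 1357 CPM (SD, n = 2), and MP lay at 4911 CPM within 1 SD of that mean. H2-Aa was detected in 35.5% of PD+MP cells at 2000 UMIs, against 68.2, 81.4, 79.7 and 92.7% in BP replicate 1, BP replicate 2, MP and MP+BP. In Mrc1-positive macrophages the class II sum was 8401, 13924, 6018, 21902 and 5299 CPM, also highest in MP+BP and lowest in PD+MP.

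Several class I genes were highest in PD+MP. The class I list summed to 5549.7, 5204, 5302, 7292 and 10377 CPM, highest in PD+MP, where H2-K1, Tap1, Psmb8 and Psmb9 of 13 genes were at least 2-fold up and none was 2-fold down. H2-K1 read 1094, 1079.8, 893, 1888 and 2496 CPM and the immunoproteasome subunit Psmb9 69.4, 41.2, 76.5, 121 and 229 CPM. Costimulation genes were low in PD+MP, with Cd86 at 400.0, 609, 572, 659 and 214 CPM and Cd83 at 493, 929, 811, 712 and 202 CPM, and 3 of 5 at least 2-fold down. Cd274 was at least 2-fold up there. In Mrc1-positive macrophages the class I sum was 5506, 5291, 4909, 5441 and 8509 CPM, also highest in PD+MP. The costimulation sum of that class was 1181, 1886, 1612, 1337 and 707 CPM, lowest in PD+MP.

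The interferon sum was highest in PD+MP and next in MP+BP. The list summed to 388, 293, 281, 1374 and 2605 CPM. Of 12 genes, 10 were at least 2-fold up in PD+MP and 1, Cxcl9, in MP+BP. In Mrc1-positive macrophages the list summed to 316, 223, 249, 206 and 1063 CPM, also highest in PD+MP but lowest in MP+BP. The Poisson 95% interval of Isg15 was 662 to 781 CPM for PD+MP, 117 to 197 for the mixed MP+BP tumour and 34.6 to 87.5 for MP, and the BP mean was 36.4 ± 7.11 CPM (SD, n = 2). Oasl2, an antiviral gene of the oligoadenylate synthetase family, read 7.71, 8.83, 2.83, 32.7 and 174 CPM and Usp18, which takes Isg15 off its targets, 3.86, 1.96, 0, 20.1 and 89.7 CPM. In PD+MP 45.4% of Mrc1-negative cells at 2000 UMIs held Isg15, against 2.90% to 10.4% elsewhere and 22.6% of the Mrc1-positive macrophages of PD+MP. The genes not at least 2-fold up in PD+MP were Cxcl10, which was highest in MP+BP and BP replicate 1, and Cxcl9, a chemokine induced by interferon gamma, at 0.964, 0.981, 0, 541 and 9.97 CPM. The UMIs of Cxcl9 in MP+BP came from 8 of 100 cells, and 1 cell gave 47.0% of them. In both BP tumours 10 of 12 interferon genes, and in MP 11 of 12, were at least 2-fold below the mean of the other tumours, a mean that includes PD+MP.

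Inflammatory genes split into blocks that went opposite ways in PD+MP. Of 23 genes, 6 were at least 2-fold up there (Ccl2, Ccl5, Ccl7, Ccl12, Cxcl3 and Il18) and 6 at least 2-fold down (Cxcl1, Il10, Tnf, Cd14, Tlr2 and Nlrp3). Ccl7, which draws monocytes as Ccl2 does, read 39.5, 80.4, 162, 239 and 543 CPM, and both had PD+MP highest and MP+BP next. Cd14 was lowest in PD+MP, with a counting interval of 279 to 358 CPM against 1986 ± 575 CPM in the BP tumours (SD, n = 2). Nlrp3, the inflammasome sensor that leads to release of interleukin 1 beta, read 162, 189, 232, 247 and 77.2 CPM, and Il1b was lowest in PD+MP too. The neutrophil attractant Cxcl2 read 682, 316, 1295, 1286 and 495 CPM, with MP and MP+BP above the other tumours, and the anti-inflammatory cytokine Il10 read 38.6, 31.4, 51, 151 and 21.2 CPM, highest in MP+BP. Ccl3 and Ccl4 were highest in BP replicate 2 and MP, and BP replicate 1 was at least 2-fold down for both.

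Some lipid genes were highest in PD+MP, but the list as a whole was not. The uptake, storage and efflux list summed to 29104, 37382, 16366, 19982 and 25738 CPM, highest in BP replicate 2 and lowest in MP, with Apoe the largest part. Cd36, Msr1, Scarb1, Plin2, Fabp4, Fabp5 and Nr1h3 of 17 were at least 2-fold up in PD+MP. Fabp5 read 594, 823, 354, 355 and 2481 CPM, with a counting interval of 2374 to 2593 in PD+MP, and Plin2 read 521, 333, 266, 166 and 866 CPM. In MP+BP 8 of the 17 genes were at least 2-fold down (5 of 17 with TMM scaling), Cd36 among them at 212, 145, 90.7, 35.2 and 379.9 CPM. The highest level of Apoe was in BP replicate 2 and its lowest in MP, a span of 13489.8 to 32874 CPM. Abca1 was also highest in BP replicate 2 and lowest in MP. Of the 12 lipid-associated macrophage genes, Gpnmb, Spp1, Lgals3, Ctsl and Acp5 were at least 2-fold up in PD+MP and 4 (Trem2, Gpnmb, Spp1 and Ctsd) at least 2-fold down in MP+BP. Spp1 differed between the BP tumours by more than it did between either of them and MP, at 1113 ± 999 CPM (SD, n = 2), and 27.8% of its UMIs in PD+MP came from 1 cell. Ctsl, a lysosomal protease, read 473, 306, 227, 284 and 1251 CPM. In Mrc1-positive macrophages the lipid-associated sum was 16245, 12208, 12944, 9787 and 20636 CPM, also highest in PD+MP and lowest in MP+BP.

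The monocyte list summed to 1112, 551, 989, 612 and 4097 CPM, and 5 of its 9 genes (Ly6c2, Ccr2, Plac8, S100a4 and S100a6) were at least 2-fold up in PD+MP, while Fn1 was so in BP replicate 1. In Mrc1-positive macrophages the list summed to 867, 617, 541, 602 and 1716 CPM, also highest in PD+MP. Ly6c2 read 8.67, 0, 5.67, 10.1 and 817 CPM, and its UMIs came from 46 of 157 cells in PD+MP and from 1, 0, 2 and 2 cells in the other tumours. Within PD+MP the 46 cells with Ly6c2 had an interferon sum of 6262 CPM and Ccl2 at 2964 CPM, and the 111 cells without it had 1212 and 471 CPM. Apoe ran the other way, at 8820 CPM in the cells with Ly6c2 and 21065 CPM in those without. H2-Aa stood at 1098 and 1718 CPM and Spp1 at 3637 and 3668 CPM in the same cells. Splitting cells of 1 tumour by a gene gives a description of that tumour, and a missed Ly6c2 transcript looks like an absent one. The 111 cells without Ly6c2 had Isg15 at 323 CPM, above the other tumours, and their interferon sum of 1212 CPM lay below the 1374 CPM of MP+BP. That order depended on Cxcl9, which came from 8 cells in MP+BP. It gave 541 CPM of the MP+BP sum and 13.8 CPM of the sum of the 111 cells. The part of the cells with Ly6c2 in the interferon level of PD+MP was not tested.

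The genes with the widest gap to every other tumour included monocyte genes in PD+MP and genes carried by single cells in BP replicate 1 and MP+BP. Among genes with at least 100 UMIs, those with the highest ratio over the next tumour in PD+MP were Ly6c2, Slfn4, Ly6a, Plac8 and Igf2. Ly6c2 was 81.2 times, Slfn4 49.1 times and Ly6a 33.0 times the next tumour. Igf2, at 173 CPM, was at 1259 CPM in the tumour cells of that library. In MP+BP the leading genes were Cxcl9, Mgp, Lmna, Eif4e and H2-Aa, and 1 cell gave 82.4% of Mgp. BP replicate 1 led in Trpm3 and Cartpt, which came almost wholly from 1 cell each (92.6% and 100%), and in Fn1, Tmtc2 and Gclc. BP replicate 2 led in Prrx1, Klf2, Plxna4, Apold1 and Ptprm, and MP in Slfn2, Rgs1, Rbm3, Ccl3 and Abracl, the latter at 1.49 to 1.86 times the next tumour.

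The labels allow 1 replicated comparison, the 3 tumours with BP in the label against the 2 without. In Mrc1-negative macrophages no gene of 7931 passed edgeR's quasi-likelihood test (0%), and 795 (10%) had an unadjusted p under 0.05, the smallest adjusted p being 0.42. DESeq2 called 1 gene. No class II gene of 8 was under 0.05 unadjusted, with a median log2 difference of 0.42 and H2-Aa at 0.67 (SE 0.63, unadjusted p = 0.317, adjusted p = 0.733). Interferon genes had 8 of 11 under 0.05 unadjusted, all lower in the tumours with BP, with a median of -2.53, and Isg15 was at -2.53 (SE 0.90, unadjusted p = 0.0203, adjusted p = 0.454). MP, the other tumour without BP, had the lowest interferon sum of the 5, at 281 CPM, so the direction rests on PD+MP at 2605 CPM. Of 9 monocyte genes 4 were lower unadjusted, with a median of -1.98, and of 23 inflammatory genes 4 were (Ccl2, Ccl7, Cxcl3 and Ptgs2), with a median of -0.039. Lipid uptake, storage and efflux genes had 2 of 16 lower unadjusted (Scarb1 and Nr1h3). On simulated counts of this design, 85.6% of 4-fold and 20.7% of 2-fold changes were recovered. The simulation left out differences between tumours that are particular to a gene, so it does not give the power of the real comparison. Leaving out MP gave 29 genes higher and 106 lower, with PD+MP then the lone tumour without BP and assumed to vary like the others.

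**Figure D5:**
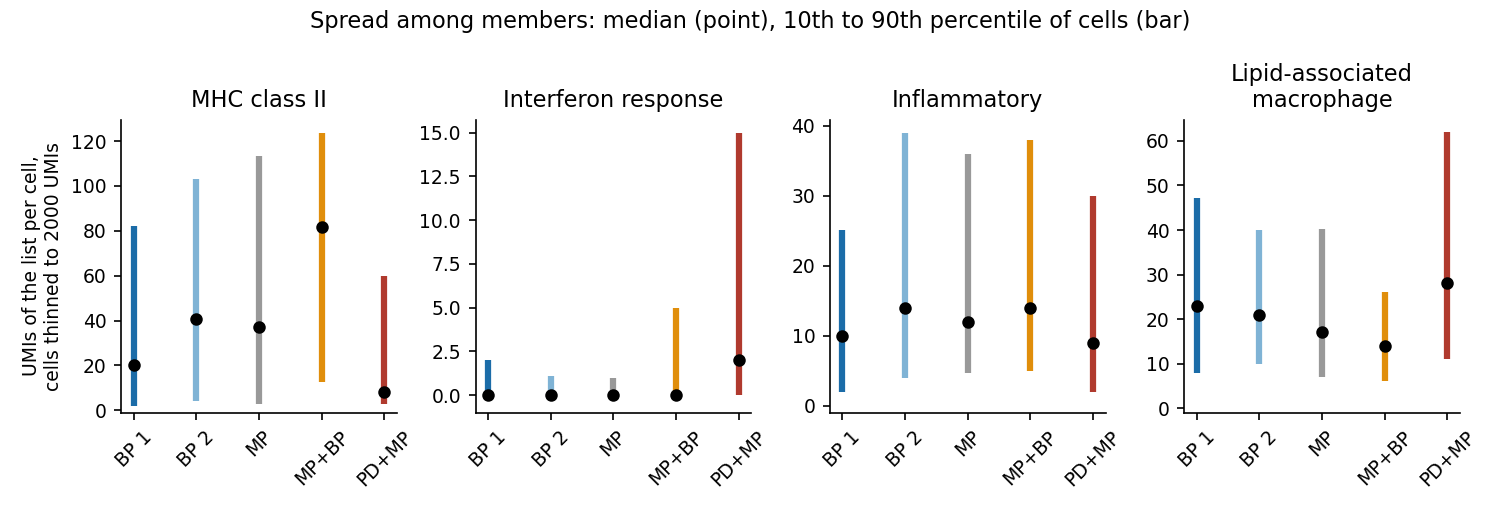
UMIs of 4 gene lists per Mrc1-negative cell at 2000 UMIs, by tumour, with the median and the bounds of the lowest and highest 10% of cells. The class II median is 81.5 UMIs in MP+BP and 8 in PD+MP, and the interferon median is 2 in PD+MP and 0 in the other 4 tumours.

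Cells within a tumour also varied widely. At 2000 UMIs per cell, the class II list gave a median of 20, 40.5, 37, 81.5 and 8 UMIs, and the bounds of the lowest and highest 10% of cells in BP replicate 1 stood at 2 and 82.1. Interferon UMIs were absent from 72.4, 75.5, 85.5, 65.6 and 34.8% of cells. The median in PD+MP was 2 UMIs and the bound of its highest 10% of cells 15, so that its sum was spread unevenly over the cells. Within tumours, class II and inflammatory UMIs went together weakly (Spearman's rho of 0.21 to 0.33 over 69 to 220 cells). Inflammatory and dissociation-stress UMIs had a rho of 0.46, 0.37, 0.22, 0.15 and 0.34, and BP replicate 1 had both the lowest inflammatory sum (5919.8, 8650.4, 9386, 9177 and 6452 CPM) and the lowest stress sum (3831, 6957, 5521, 6068 and 4965 CPM), a relation whose part in the inflammatory values was not tested. Interferon and monocyte UMIs had a rho of 0.64 over 141 cells in PD+MP and -0.07 to 0.12 in the other tumours, and class II and lipid-associated UMIs a rho of -0.14, -0.14, -0.23, 0.06 and -0.34 in the 5 tumours. These are correlations across cells that share a library, not replicates.

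A small number of cells carried Cd207, a gene of Langerhans cells and some dendritic cells. Cd207 was held by 49 of the 747 cells (15, 7, 9, 16 and 2 by tumour) and, at 2000 UMIs, by 4.89% of Mrc1-negative, 1.36% of Mrc1-positive macrophages and 0.0215% of tumour cells. Those 49 cells had H2-Aa at 6657 CPM against 3687 CPM in the other 698, Apoe at 13086 against 24420 CPM, and Ccr7, the receptor that guides presenting cells to lymph nodes, at 82.2 against 2.69 CPM. These values pool tumours of different levels: 16 of the 49 cells came from MP+BP and 2 from PD+MP, against 84 and 155 of the other 698, and the part of this make-up in the differences was not tested. The defining dendritic genes Flt3 and Zbtb46 read 7.47 and 26.1 CPM in them, and 0.898 and 3.59 CPM in the others. Ccr7 and Flt3 were detected in few of the 747 cells, as given above, so their levels here rest on few molecules and cells.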

How the data were processed

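Count matrices of 5 tumours were used as deposited: whole-number UMI counts per gene and cell, which the authors made with Cell Ranger 7.2.0 (per the file headers) on mm10 and filtered to called cells from 10x 3′ v3.1 libraries. Cells were kept at 750 or more detected genes and 25% or less mitochondrial UMIs, the filter the study states. The cell rule, the gene lists and the comparisons were chosen with earlier results of these data known, so none of them is independent support for a pattern seen before. UMIs were summed over the cells of a class in each tumour (range of these sums for Mrc1-negative macrophages 352859 to 1037535), and a fold change is a ratio of such sums.

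Classes were compared with edgeR 4.0.16 in R 4.3.3 (quasi-likelihood test, TMM scaling, filterByExpr, Benjamini-Hochberg adjustment, two-sided) blocked by tumour, because the cells of a pair come from 1 library. Every adjusted p in the text is from such a fit over all genes. A second fit set the 3 tumours whose label holds BP against the other 2. The p-values treat the 5 tumours as replicates, and the BP tumours may share an animal. Genes of the rule that passed the count filter took part in each fit and its adjustment, and were left out of every call and count given. Exact Poisson and Clopper-Pearson 95% intervals cover counting error only, and UMIs of 1 cell are not independent samples of a tumour.

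Named genes were those of the fixed lists, the 10 called genes in each direction with the largest change of 1 sign in all 5 tumours and at least 50 UMIs, up to 5 called genes for the BP label (there were none) and, per tumour, the 5 genes of at least 100 UMIs with the largest ratio over the next tumour. Csf1r, Cd207 subsets, Ly6c2 subsets and Slfn4 are described as values seen afterwards. Ero1a of the lists is Ero1l in the matrices. Alternatives were total counts, DESeq2 1.42.0, no filter on low counts, Scrublet doublets removed (scanpy 1.11.5; the study used another caller), 10% mitochondrial UMIs, cells of at least 5000 UMIs, thinning to 2000 UMIs, a comparator with at least 3 resident UMIs, no block and leaving out each tumour. Leaving out cells with at least 5 UMIs of other cells' markers was chosen after seeing the data. On simulated counts the paired fit recovered 98.9% of 4-fold and 82.3% of 2-fold changes over 8293 genes, and the BP fit 85.6% and 20.7% over 7546 genes. These counts were drawn at the pooled mean of each gene with the spread fitted for its level, without tumour differences particular to a gene. Promoters came from RefSeq (GRCm38.p6) and gene positions from GENCODE M21.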

Additional observations from a re-analysis of the deposited data

Results flagged for a closer look

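For 8 genes the difference between Mrc1-negative and Mrc1-positive macrophages had opposite signs in different tumours, beyond the counting intervals of each. Values are log2 ratios of CPM, Mrc1-negative over Mrc1-positive, and each rests on 1 tumour set against both BP tumours. The difference between tumours was not tested, since MP, MP+BP and PD+MP have 1 library each.

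Monocyte attractants changed sign between tumours. Ccl2 stood at 1.34 in PD+MP (interval 1.22 to 1.46), against -1.89 and -0.99 in the BP tumours, -1.80 in MP and -0.18 in MP+BP. Ccl7 stood at 0.73 in PD+MP against -2.62 and -1.10 in the BP tumours, -1.36 in MP and -0.83 in MP+BP. Ccl12 stood at 0.26 in PD+MP and 0.39 in MP+BP, against -1.93 and -0.74 in the BP tumours and -3.80 in MP. All of them lie close together in the genome and are made by activated monocytes. The 46 of 157 PD+MP cells with Ly6c2 held Ccl2 at 2964 CPM and the other 111 at 471 CPM, beside 459 CPM in the Mrc1-positive macrophages of that tumour.

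Cxcl2, the neutrophil attractant, stood at 1.44 in MP+BP and 0.92 in PD+MP, against -0.45 and -0.44 in the BP tumours. Cxcl10, the interferon-induced chemokine, stood at -1.26 in MP, against 1.21 and 0.61 in the BP tumours, and the tumour cells of MP held Cxcl10 at 186 CPM. The matrix genes Fn1 and Vcan stood at -2.00 and -2.22 in MP+BP, against 0.52 and 2.03 for Fn1 and 1.58 and 1.77 for Vcan in the BP tumours. The heat-shock gene Hspa1a stood at 0.46 in MP and 0.42 in MP+BP, against -1.50 and -0.31 in the BP tumours.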

How the results depend on the processing

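Pairing came from the library: both classes of a pair were cells of 1 tumour. Without the replicate block the paired comparison called 9 genes higher and 4 lower in place of 452 and 348, 0 of the MHC class II, interferon, inflammatory, monocyte and lipid genes and 1 of the 10 resident genes. DESeq2 called 290 genes higher and 201 lower, with 1 interferon gene and 0 monocyte genes. Without a filter on low counts 791 genes were lower and 10 of 13 interferon genes higher. Thinning to 2000 UMIs gave 274 higher and 166 lower of 5377 tested, with 3 of 4 tested interferon genes higher, against 5 of 8 in the main comparison. In cells of at least 5000 UMIs 273 genes were higher, with 2 inflammatory genes and 1 monocyte gene higher and 3 lipid genes lower. That fit held fewer cells, and the cause of the change was not tested. Leaving out 1 tumour at a time gave 269 to 371 genes higher, 211 to 311 lower, 6 class II genes, 1 to 7 interferon genes, 2 to 5 inflammatory genes, 1 to 6 monocyte genes, 2 to 5 lipid genes lower and 10 to 11 resident genes lower. For the BP label, DESeq2 called 1 gene higher, no filter on low counts 130 higher and 195 lower, and leaving out 1 tumour 0 to 29 higher and 0 to 106 lower. The share of non-cycling macrophages was 20.1, 17.5, 16.2, 11.5 and 17.4% in cells of at least 5000 UMIs, and 46.7, 49.3, 36.9, 37.4 and 40.0% with up to 1 resident UMI allowed. In cells of at least 5000 UMIs the interferon sum of PD+MP over the BP mean went from 7.64 to 5.85, and that of the lipid-associated list from 1.46 to 1.60. Of 55 named calls none changed sign in an alternative that tested it. The calls were chosen from the main fit and the alternatives use the same cells or part of them, so this is no independent support. Only 40 could be tested after thinning and 46 without cells holding other cells' RNA. The threshold was lost by 50 without the block, 15 with DESeq2 and 11 of 47 in cells of at least 5000 UMIs. Depth limits the class itself, since a missed resident transcript and an absent one look alike.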

Other observations

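Hypoxia and arginine-use genes split the biphasic tumours. Arg1, which breaks down arginine, read 155, 0.981, 0, 0 and 132 CPM, and Hmox1, which degrades haem, read 1429, 222, 147, 214 and 1675 CPM in the usual order of tumours. BP replicate 1 and PD+MP were therefore high for both and the other 3 tumours low, so the BP label does not separate them. The list summed to 2506 CPM in BP replicate 1 and 583 CPM in BP replicate 2. In Mrc1-positive macrophages it summed to 2946 and 529 CPM in the same tumours. The dissociation-stress genes Fos, Jun, Dusp1, Hspa1a and Hspa1b were at least 2-fold down in BP replicate 1.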
